A study of Homo sapiens with 18 samples.

Results

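The cultures described here are the CsA-treated HK-2 cells measured 24 and 48 h after the start of treatment, and the question is what changed in them over the second day. They make up 6 of the 18 arrays in the series, 3 of CsA for 24 h and 3 of CsA for 48 h. They were chosen by their treatment, time and replicate labels, and each 48 h array was paired with the 24 h array of the same biological replicate number. HK-2 is one immortalized cell line, derived from the proximal tubule of a human kidney. CsA is the usual abbreviation of cyclosporin A, although the labels neither spell it out nor give a dose. The cells were grown in a hormone- and growth-factor-supplemented medium, plated a day ahead and treated close to confluence. The 6 vehicle arrays of 24 and 48 h, with 3 in each group, carried the same replicate numbers and gave the change in cultures without CsA over the same hours. The remaining arrays were 12 h cultures of both kinds. The labels call the replicates biological without saying how they were kept apart, so p-values measure only the spread between these cultures.

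Cyclosporin A binds cyclophilins, which are peptidyl-prolyl isomerases, and its complex with PPIA blocks the phosphatase calcineurin. PPIB is the cyclophilin of the endoplasmic reticulum (ER), where it helps secreted proteins to fold. When unfolded proteins accumulate there, sensors in the ER membrane start the unfolded protein response: ATF6 and XBP1 raise chaperone genes through ER stress response elements, and PERK, through ATF4, raises genes of amino acid supply and stress. Proliferating epithelial cells express a large program of replication genes under E2F factors and of mitotic genes under the DREAM and MuvB complexes. Both are switched off when cells leave the cycle, for example in dense cultures.

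Values are log2 levels, so that a difference of 1 is a doubling. Array medians over the series lay between 2.858 and 2.924. KRT8 averaged 10.96 at 24 h and 11.08 at 48 h, VIM 13.94 and 13.82, DPP4, a brush border peptidase, 11.60 and 11.54, and EZR, a microvillus protein, 11.26 at both times. Of 28 genes of proximal tubule function on the array, 8 reached a group mean of 4. The megalin gene LRP2 (2.68 and 2.67), its partner CUBN (2.14 and 2.13), the phosphate transporter SLC34A1 (2.71 and 2.74) and the water channel AQP1 (2.45 at both times) lay near background. Several defining genes of the proximal tubule were thus on the array but not detected above background in these cells. Leukocyte markers reached that level for 0 of 8 genes, with a summed linear level of 45.4 to 46.3 at 24 h and 44.6 to 46.2 at 48 h. Of 10 fibroblast markers 5 reached it, with a sum of 2340 to 3130 at 24 h and 659 to 2540 at 48 h; 1 of these 5 fell, LUM by 2.52, and their part in other results was not tested. Endothelial markers reached it for 2 of 10 genes, podocyte markers for 4 of 6 and distal nephron markers for 3 of 12. The difference between 3-prime and 5-prime probe sets of ACTB, a sign of RNA quality, was 0.76, 0.88 and 0.80 at 24 h and 0.96, 1.10 and 0.78 at 48 h in replicates 1 to 3. That of GAPDH was between -0.16 and -0.11 on the 6 CsA arrays. The part of RNA quality in the results was not tested.

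The second day changed a large share of the genes measured in CsA cultures. Of 10717 genes tested, 4477 (41.8%) passed the test, which was limma on all 18 arrays with the replicate number as a block, at an adjusted p under 0.05. Of these, 2279 (21.3% of genes tested) rose and 2198 (20.5%) fell. A change of at least 1 log2 was reached by 589 of the genes that rose and 757 of those that fell. In 4414 of the 4477 all 3 replicate pairs moved the same way. The genes were picked by a fit with the replicate block, which favours that count. By contrast, between 12 and 24 h of CsA 14 genes (0.131%) passed, with 1260 at an unadjusted p under 0.05; that comparison uses the same 24 h arrays. The 3 pairs moved by unequal amounts: at least 1 log2 separated the arrays of pair 1 for 569 genes upward and 459 downward, those of pair 2 for 661 and 878, and those of pair 3 for 961 and 1300. Over all genes the SD of the change was 0.62, 0.778 and 0.944 in these 3 pairs.

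Much of this change also took place without CsA. In vehicle cultures 3489 genes (32.6%) passed between 24 and 48 h, 1779 (16.6%) upward and 1710 (16%) downward. The CsA and vehicle changes share no arrays. They had 2585 genes in common that passed in the same direction, 1352 upward and 1233 downward, which is 57.7% of the genes called in CsA and 74.1% of those called in vehicle. Another 6 passed in opposite directions. Of the genes called in CsA, 3591 (80.2%) had a larger change there than in vehicle, a count that favours CsA because the genes were picked for passing in CsA. The difference between the changes was itself tested: 5 genes (0.0467%) passed, and 1438 had an unadjusted p under 0.05. The median gene changed by -0.001 in CsA and by -0.003 in vehicle. Time in culture, density and age of the medium ran together with hours of exposure in both arms, and no source used here says whether the times were hybridised together, so these cannot be told apart.

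**Figure D1:**
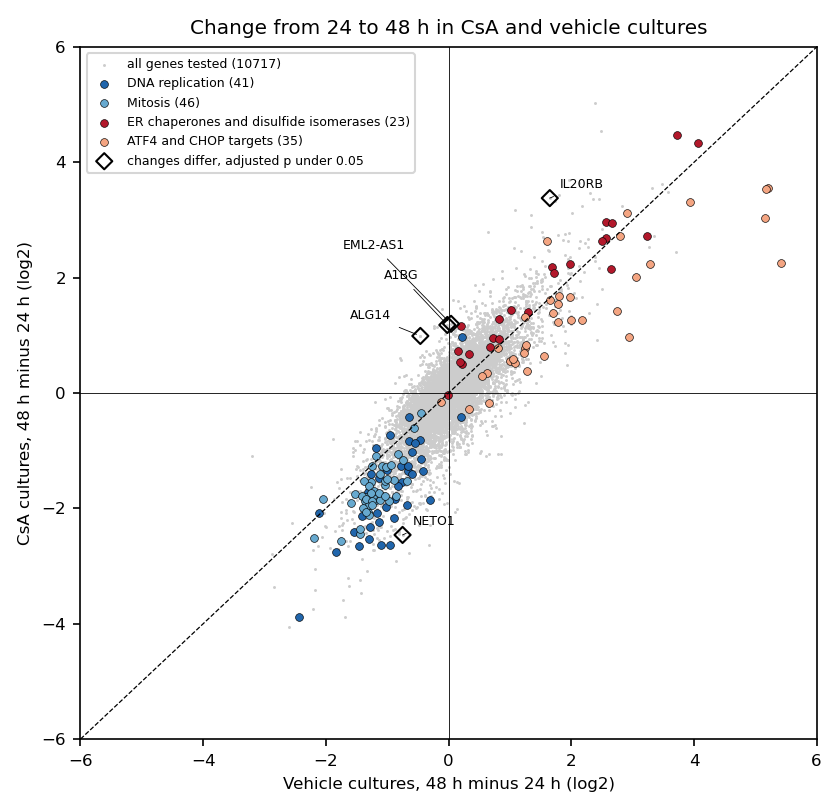
Each point is a gene, with its change from 24 to 48 h in vehicle cultures on the x axis and in CsA cultures on the y axis (both log2, limma estimates from 3 replicate pairs); the dashed line marks equal change. Most DNA replication genes (dark blue) and mitosis genes (light blue) lie at the lower left, below the line, most ER chaperones (red) lie at the upper right, most ATF4 and CHOP targets (orange) lie below the line at the upper right, and diamonds mark the 5 genes whose changes differed.

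Genes that copy DNA fell almost as a whole. Of 41 tested replication genes, 39 fell, 1 rose and 1 did not pass, against 20.5% of all tested genes falling. Their median was -1.71, with medians of -1.29, -1.71 and -2.07 in pairs 1, 2 and 3, and 39 genes had every 48 h array below every 24 h array, against 19.7% of all genes. In bulk RNA, fewer cells in cycle and less of each transcript per cell cannot be told apart. In vehicle cultures 35 of the 41 fell, against 16% of all tested genes there, with a median of -0.95. In 36 of the 41 the CsA change was the more negative. These genes were read on the same arrays, so the 36 are not separate results. For 0 of the 41 did the difference between the changes pass.

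The promoters of MCM6 and POLA1 are shown with that of E2F1 because each carries a strict form of the E2F motif. All stretches printed here are RefSeq sequence of GRCh38.p14, lie within the 250 bases before the annotated gene start, read 5′ to 3′ on the gene's strand, and carry matches in capitals. These promoters were picked after the values were seen, for holding a match.
MCM6, chr2:135876504-135876623, minus strand: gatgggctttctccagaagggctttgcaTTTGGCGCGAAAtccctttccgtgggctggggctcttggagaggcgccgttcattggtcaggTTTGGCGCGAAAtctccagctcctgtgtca
POLA1, chrX:24693728-24693827, plus strand: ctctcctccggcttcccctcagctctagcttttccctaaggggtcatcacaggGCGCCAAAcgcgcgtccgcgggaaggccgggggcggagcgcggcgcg
E2F1, chr20:33686386-33686495, minus strand: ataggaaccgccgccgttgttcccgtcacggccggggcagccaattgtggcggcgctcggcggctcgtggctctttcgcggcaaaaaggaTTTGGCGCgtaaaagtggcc
The letters searched were TTTCGCGC and TTTGGCGC on both strands. They occurred in 5 of 34 replication promoters (14.7%), in 272 of 27305 promoters in the table (0.996%) and in 151 of the 8884 tested genes that had one (1.7%). In MCM6 the 4 matches form 2 overlapping pairs, one match on each strand. Among the genes that fell 2.08% had a match, and among those that rose 1.26%. A match describes these letters and not binding.

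MCM6, a subunit of the replicative helicase, stood at 11.88, 11.26 and 12.00 at 24 h and at 10.47, 9.23 and 8.95 at 48 h in replicates 1 to 3. Its change was -2.16 ± 0.30 (SE of the fit, as in all changes here; n = 3 pairs; limma adjusted p = 0.000131). POLA1, which holds the polymerase activity of DNA polymerase alpha, went from 8.81, 8.29 and 9.04 to 7.53, 7.04 and 6.97, a change of -1.54 ± 0.18 (limma adjusted p = 4.39e-05). Replicate 1 kept the highest level at 48 h for both. MCM10, a replication initiation factor, went from 7.21, 5.66 and 8.18 to 2.99, 2.68 and 3.71. It fell by 3.89 on the log2 scale (14.8-fold; limma adjusted p = 8.64e-06), and since its 48 h levels are near background this size may be understated. PCNA, the sliding clamp of replication, went from 13.46, 13.05 and 13.67 to 12.06, 10.84 and 11.06, a change of -2.08 ± 0.25 (limma adjusted p = 4.85e-05) beside -1.16 in vehicle. No 48 h array overlapped the 24 h arrays for these 4 genes. ORC1, of the origin recognition complex, changed by -2.76, DSCC1, of a clamp-loading complex, by -2.66 and POLD1, the catalytic subunit of polymerase delta, by -1.77.

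CDC6, which loads the helicase onto origins, went the other way. It stood at 8.28, 7.80 and 9.15 at 24 h and at 9.13, 9.33 and 9.69 at 48 h, a rise of 0.97 ± 0.22 (limma adjusted p = 0.00357). The times overlap because replicate 3 was high at both, and the call was lost without the replicate block. PRIM1, the primase subunit, changed by -0.42 and did not pass (limma adjusted p = 0.0645).

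Genes that supply and package new DNA fell with them. All 8 tested genes of deoxynucleotide synthesis fell, against 20.5% of all tested genes. Their median was -1.74 beside -0.88 in vehicle, where 7 fell. TYMS, which makes thymidylate, went from 13.05, 12.82 and 13.09 to 11.27, 9.80 and 11.20, a change of -2.23 ± 0.26 (limma adjusted p = 4.3e-05). RRM1, the large subunit of ribonucleotide reductase, changed by -1.75. Of 12 genes of S-phase chromatin 11 fell, with a median of -1.52 beside -0.88 in vehicle, where 10 fell. UHRF1, which brings DNMT1 to newly copied DNA, went from 10.51, 9.53 and 11 to 8.20, 5.64 and 6.45, a change of -3.58 ± 0.40 (limma adjusted p = 3.06e-05) beside -1.72 in vehicle. The 24 h arrays lay apart from the 48 h arrays, and replicate 2 fell to the lowest level. DNMT1, the maintenance methyltransferase, changed by -1.52 and ASF1B, a histone chaperone, by -3.35. Its paralog ASF1A rose by 0.43 (limma adjusted p = 0.0281), a call lost, among other settings, without replicate 3 of CsA at either time. Of 17 genes of homologous recombination and the Fanconi pathway 13 fell, beside 12 in vehicle. The difference between the changes passed for no gene of these lists. The helicase BRIP1 went from 8.32, 7.64 and 8.91 to 5.58, 2.72 and 4.89, a change of -3.89 ± 0.49 (limma adjusted p = 6.37e-05), and BLM, another helicase, changed by -3.42.

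Genes of mitosis fell without exception among those tested: 46 of 46, with a median of -1.78, against 20.5% of all tested genes falling. In 46 of 46 every 48 h array lay below every 24 h array, against 19.7% of all genes. Here pair 2 moved most, with a median of -2.43 beside -1.31 in pair 1 and -1.34 in pair 3. Vehicle cultures showed 44 of 46 falling, with a median of -1.23, against 16% of all tested genes falling there. Of the 46, 0 differed between the arms. The promoters of 3 members are shown because each carries the letters of the cell cycle homology region close to its start. MuvB complexes act through that region.
BUB1B, chr15:40160959-40161068, plus strand: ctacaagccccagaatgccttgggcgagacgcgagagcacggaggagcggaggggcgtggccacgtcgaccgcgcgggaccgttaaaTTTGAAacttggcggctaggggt
KIF4A, chrX:70289994-70290103, plus strand: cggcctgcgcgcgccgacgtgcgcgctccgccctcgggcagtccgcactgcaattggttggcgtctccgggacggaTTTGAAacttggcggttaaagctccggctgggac
ANLN, chr7:36389752-36389861, plus strand: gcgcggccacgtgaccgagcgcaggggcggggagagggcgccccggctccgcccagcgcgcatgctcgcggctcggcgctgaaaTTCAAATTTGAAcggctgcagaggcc
The letters TTTGAA, on either strand, occurred in 19 of 38 mitosis promoters (50%). They occurred in 13.6% of all promoters of this length and in 8.19% of promoters of tested genes. They occurred in 10.8% of promoters of genes that fell and in 7.21% of those that rose. BUB1B, a spindle checkpoint kinase, went from 9.86, 9.61 and 10.40 to 8.24, 7.00 and 8.45, a change of -2.06 ± 0.20 (limma adjusted p = 1.53e-05). KIF4A, a chromosome motor, changed by -1.78 ± 0.17, ANLN, a scaffold of the cleavage furrow, by -2.57 ± 0.26 and AURKA, a spindle kinase, by -1.75 ± 0.19. Each of these 4 also fell in vehicle, by 1.31, 1.23, 1.75 and 1.52 on the log2 scale.

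The regulators around these programs were less uniform. Of 26 G1 cyclins, E2F factors and CDK inhibitors 11 fell and 1 rose. CCNE1, which drives entry into S phase, changed by -2.16 ± 0.28, CDK2, its kinase, by -1.76 ± 0.23, and the E2F factors E2F8 and E2F1 by -2.69 ± 0.38 and -1.45 ± 0.26. The gene that rose was CDKN1A, the p21 inhibitor of CDKs. It went from 8.91, 9.23 and 9.51 to 9.65, 10.47 and 10.47, a change of 0.98 ± 0.21 (limma adjusted p = 0.00247). In vehicle it changed by 0.34 (limma adjusted p = 0.246), and the difference between the changes did not pass. Among 17 p53 targets 8 rose and 1 fell, against 21.3% of all tested genes rising and 20.5% falling. In vehicle 5 of the 17 rose and 0 fell, and for 0 of the 17 did the difference between the changes pass. Whether p53 acted on these genes was not tested, and GDF15 and SESN2 are also listed among ATF4 and CHOP targets. The stress regulator SESN2 rose by 1.55 beside 1.79 in vehicle. The death receptor TNFRSF10B rose by 0.99 and ZMAT3 by 0.97, while the death receptor FAS fell by 1.26. Of 22 BCL2 family and death receptor genes 4 rose and 3 fell, below the shares of all tested genes. TNFSF10, the ligand TRAIL, went from 12.00, 12.03 and 12.54 to 11.21, 10.22 and 10.75, a change of -1.46 ± 0.18 (limma adjusted p = 6.37e-05). In vehicle it changed by -0.19 and did not pass, and neither did the difference between the changes.

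**Figure D2:**
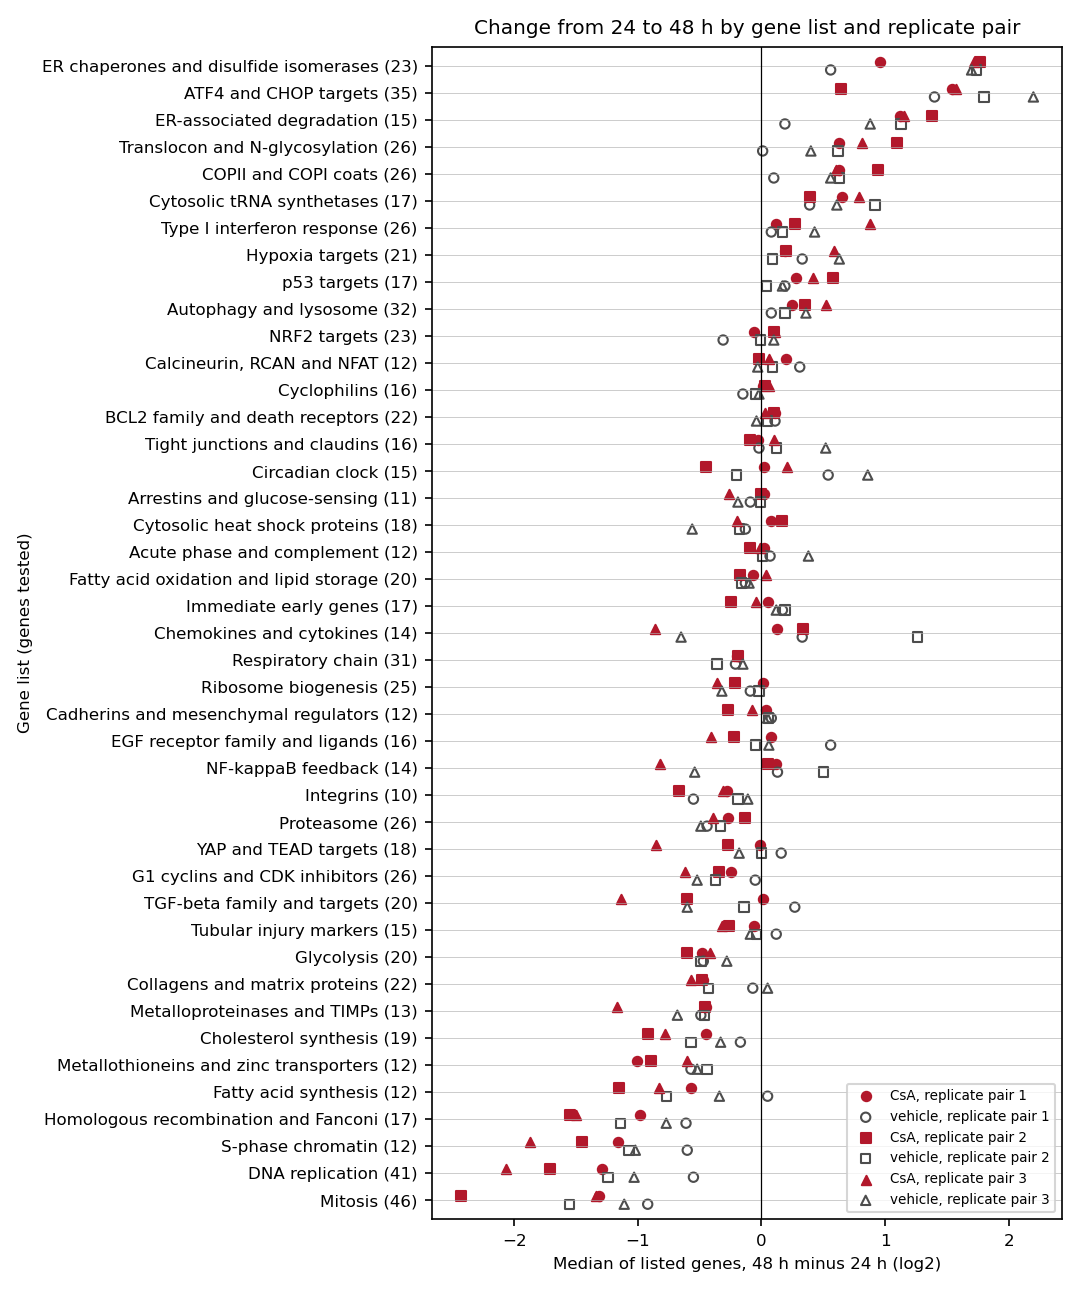
Each row is a gene list with 10 or more tested genes (number in brackets), and the x axis gives the median change of its genes from 24 to 48 h (log2). Filled red symbols are the 3 CsA replicate pairs and open grey symbols the 3 vehicle pairs; in each of the 4 lowest rows every CsA symbol lies at or below -0.98, and in the top row every CsA symbol lies at or above 0.96.

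Genes for folding proteins in the ER rose as a body. Of 23 tested chaperones and disulfide isomerases 21 rose and 0 fell, against 21.3% of all tested genes rising. Their median was 1.44, and 0.96, 1.77 and 1.72 in the 3 pairs. In vehicle 17 of 23 rose, against 16.6% of all tested genes there, with a median of 1.29, and 0 of the 23 differed between the arms. The ER stress response element was looked for in their promoters, and 3 that hold it are shown.
HSPA5, chr9:125241344-125241453, minus strand: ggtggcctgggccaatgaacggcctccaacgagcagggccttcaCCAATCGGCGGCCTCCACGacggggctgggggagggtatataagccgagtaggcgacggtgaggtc
ERO1B, chr1:236282109-236282208, minus strand: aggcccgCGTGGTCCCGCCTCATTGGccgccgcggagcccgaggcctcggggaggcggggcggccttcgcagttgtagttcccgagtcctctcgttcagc
CRELD2, chr22:49918504-49918603, plus strand: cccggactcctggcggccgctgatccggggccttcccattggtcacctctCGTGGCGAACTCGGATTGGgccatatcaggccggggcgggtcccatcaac
The letters were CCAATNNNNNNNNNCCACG on both strands, which include a CCAAT box. They occurred in 6 of 21 chaperone promoters (28.6%) and in 22 of 27305 promoters in all (0.0806%). Of the 8884 tested genes with a promoter 13 held a match; 12 of these 13 rose and 0 fell. The exception was CALR, a lectin chaperone, which changed by 0.68 ± 0.27 and did not pass (limma adjusted p = 0.0554). The 12 included genes outside the chaperone list: FICD, which modifies HSPA5, rose by 3.37, ALG12, a mannosyltransferase of N-glycan assembly, by 1.60, SERP1, a translocon-associated protein, by 1.58 and XBP1, the transcription factor, by 1.07. In vehicle 10 of the 12 passed upward as well, while TMEM120A and TRIM5 did not pass. For neither of them did the difference between the changes pass.

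HSPA5, the main chaperone of the ER, stood at 12.96, 13.73 and 13.19 at 24 h and at 15.29, 15.59 and 15.44 at 48 h. It rose by 2.15 ± 0.19 (4.43-fold; limma adjusted p = 7.85e-06), beside 2.64 in vehicle. ERO1B, an oxidase that renews disulfide-forming enzymes, went from 4.80, 5.51 and 5.36 to 9.19, 9.68 and 9.82, a rise of 4.34 ± 0.34 (20.3-fold; limma adjusted p = 3.98e-06). SDF2L1, an ER cochaperone that works with HSPA5, went from 6.11, 6.10 and 7.16 to 10.42, 11.28 and 11.10, a rise of 4.48 ± 0.34 (22.3-fold; limma adjusted p = 3.2e-06). The arrays of the times were far apart for each, and replicate 1 was lowest of the 48 h arrays for all 3. The cochaperones DNAJB9 and DNAJC3 rose by 2.73 and 2.68, and CRELD2 by 2.94. ERO1A, the paralog of ERO1B, changed by -0.03 and did not pass.

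The steps before and after folding moved in the same direction. In ER-associated degradation, which returns misfolded proteins to the cytosol, 11 of 15 genes rose and 0 fell, against 21.3% of all tested genes rising. The median was 1.12 beside 0.76 in vehicle, where 8 rose and 1 fell. Of the 15, 0 differed between the arms. HERPUD1, an organizer of that complex, went from 10.94, 11.90 and 10.85 to 13.72, 13.96 and 13.64, a rise of 2.54 ± 0.22 (limma adjusted p = 5.97e-06), and SEL1L, its adaptor, rose by 2.60 ± 0.25. Of 26 genes of the translocon and N-glycosylation 23 rose and 1 fell, with a median of 0.79 beside 0.35 in vehicle, where 12 rose. The difference between the changes passed for 0 of the 26. SEC11C, a subunit of signal peptidase, went from 8.18, 8.26 and 8.68 to 10.05, 11.07 and 10.61, a rise of 2.20 ± 0.24 (limma adjusted p = 2.86e-05), and SEC63, which drives transport through the translocon, rose by 1.19. SPCS3, another signal peptidase subunit, was the one that fell, by 0.52, a call lost without the replicate block and on the 6 arrays alone. Of 26 genes of COPII and COPI coats, which carry cargo between ER and Golgi, 21 rose and 0 fell. Their median was 0.73 beside 0.36 in vehicle, where 12 rose, and 0 of these 26 differed between the arms. The cargo adaptors SEC24D and SEC24A rose by 1.66 and 1.40, ARF4, a small GTPase of the Golgi, by 1.23 and SEC31A, of the outer coat, by 1.04.

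Targets of ATF4 and of its partner CHOP formed the third rising group. Of 35 tested genes 23 rose and 0 fell, with a median of 1.26, against 21.3% of all tested genes rising. In vehicle 32 rose, against 16.6% of all tested genes there, with a median of 1.71. In 32 of 35 the CsA change lay below the vehicle change, while for 0 of 35 did the difference pass. The members were read on the same arrays, so these 32 are not separate results. Between 12 and 24 h of CsA the list had a median change of 0.75, with 4 genes called; both comparisons use the CsA arrays of 24 h. The pairs were unequal, with medians of 1.54, 0.64 and 1.57. The promoters shown hold a match to letters of the amino acid response element, to which ATF4 dimers bind.
ATF3, chr1:212565167-212565266, plus strand: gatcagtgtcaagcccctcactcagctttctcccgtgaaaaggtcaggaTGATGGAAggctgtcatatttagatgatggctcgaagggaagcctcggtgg
ASNS, chr7:97872429-97872528, minus strand: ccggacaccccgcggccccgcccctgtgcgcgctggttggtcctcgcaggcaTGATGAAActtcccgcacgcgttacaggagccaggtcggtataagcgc
IARS1, chr9:92293698-92293807, minus strand: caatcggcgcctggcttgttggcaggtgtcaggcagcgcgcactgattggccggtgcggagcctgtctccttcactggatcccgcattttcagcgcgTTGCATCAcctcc
The letters of that element, TGATGNAA on both strands, occurred in 3 of 28 promoters of the list (10.7%) and in 3.19% of all promoters. They occurred in 2 of 14 promoters of cytosolic tRNA synthetases (14.3%). Among promoters of tested genes 1.33% held them, with 1.58% for genes that rose and 1.48% for genes that fell. As with E2F, a match does not describe binding.

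DDIT3, which encodes CHOP, stood at 9.03, 11.48 and 8.78 at 24 h and at 12.98, 13.38 and 13.51 at 48 h. Replicate 2 was thus already high at 24 h, which lowers the change of pair 2. The gene rose by 3.53 ± 0.48 (11.5-fold; limma adjusted p = 9.97e-05). Vehicle cultures started from 7.90, 8.43 and 7.19 and reached 12.11, 13.31 and 13.62, a rise of 5.17 ± 0.48. SLC7A11, the cystine carrier, showed this most: CsA arrays went from 7.64, 10.08 and 7.13 to 10.55, 10.75 and 10.32, and vehicle arrays from 4.34, 5.45 and 4.05 to 9.89, 10.22 and 9.99. It rose by 2.26 ± 0.41 with CsA (limma adjusted p = 0.000773, a call lost on the 6 arrays alone) and by 5.42 ± 0.41 with vehicle. The difference of -3.16 ± 0.58 did not pass over all genes (limma adjusted p = 0.118). ATF4 itself rose by 0.78 beside 1.25. ATF3, a stress-induced factor, went from 6.14, 8.27 and 7.69 to 10.08, 11.14 and 11.53 with CsA, a rise of 3.55 ± 0.64 (limma adjusted p = 0.00077). ASNS, asparagine synthetase, rose by 2.01, ALDH1L2, a mitochondrial folate enzyme, by 3.31 and SLC3A2, the heavy chain of several amino acid carriers, by 2.72. In vehicle ASNS, ALDH1L2 and SLC3A2 rose by 3.06, 3.93 and 2.79. Of 17 cytosolic tRNA synthetases 12 rose and 0 fell, against 21.3% of all tested genes rising. Their median was 0.61 beside 0.59 in vehicle, where 11 rose and 2 fell. WARS1, for tryptophan, went from 9.99, 10.39 and 9.70 to 12.24, 12.73 and 12.73, a rise of 2.54 ± 0.29 (limma adjusted p = 3.65e-05) beside 2.27 in vehicle. IARS1, for isoleucine, rose by 1.08 beside 0.91.

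**Figure D3:**
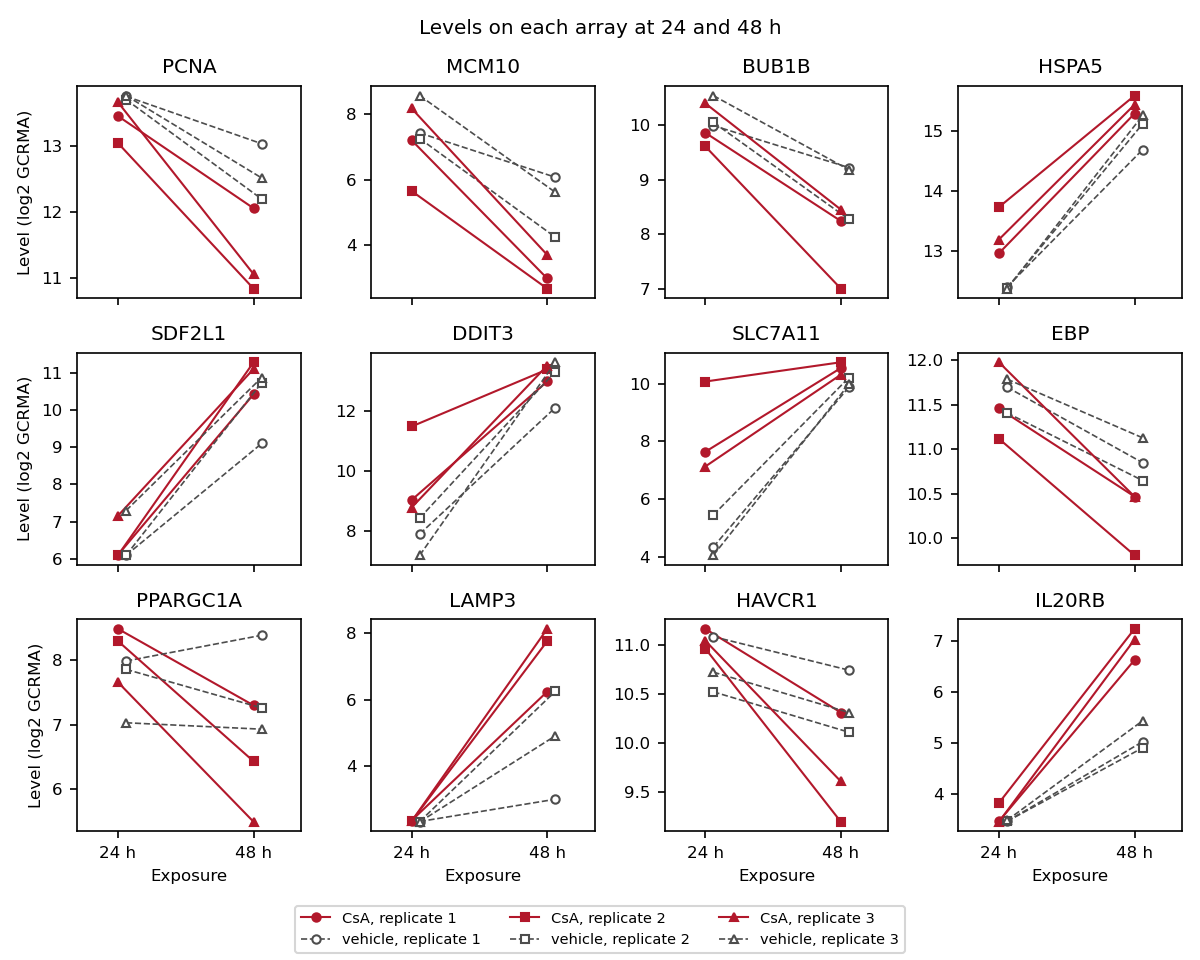
Levels (log2 GCRMA values, y axes of unequal range) at 24 and 48 h for 12 genes; solid red lines join the CsA arrays of one replicate number and dashed grey lines the vehicle arrays. SLC7A11 starts between 7.13 and 10.08 with CsA and between 4.05 and 5.45 with vehicle and ends within 9.89 to 10.75 on all 6 arrays, while IL20RB ends at 6.62 to 7.23 with CsA and at 4.90 to 5.43 with vehicle.

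Lipid synthesis fell. Of 19 genes of cholesterol synthesis 12 fell and 3 rose, against 20.5% of all tested genes falling and 21.3% rising. The median was -0.71 beside -0.35 in vehicle, where 9 fell and 2 rose. Of the 19, 0 differed between the arms. ACAT2, which makes the first intermediate of the pathway, went from 10.89, 11.01 and 11.90 to 9.57, 8.84 and 9.86, a change of -1.84 ± 0.20 (limma adjusted p = 2.86e-05). EBP, a sterol isomerase, went from 11.46, 11.12 and 11.98 to 10.47, 9.81 and 10.47, a change of -1.27 ± 0.11 (limma adjusted p = 7.94e-06) beside -0.76 in vehicle. FDPS and IDI1, of the isoprenoid steps, changed by -0.95 and -1.05. STARD4, a sterol carrier, rose by 0.80 and HSD17B7 by 0.58. Of 12 genes of fatty acid synthesis 9 fell and 0 rose, with a median of -0.92 beside -0.27 and 4 falling in vehicle. The difference between the changes passed for 0 of the 12. FASN, the fatty acid synthase, went from 9.10, 9.20 and 9.48 to 7.95, 7.35 and 7.05, a change of -1.81 ± 0.27 (limma adjusted p = 0.000214). ACLY, which supplies its acetyl-CoA, changed by -1.26 ± 0.18, and ACSL4, which activates arachidonic acid, by -1.72 ± 0.23, a call lost without the replicate block.

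Other genes of energy metabolism moved less as groups. Glycolysis had 13 of 20 genes falling and 1 rising, against 20.5% of all tested genes falling and 21.3% rising. Its median was -0.56 beside -0.46 in vehicle. PGAM1 changed by -1.16 ± 0.10, PKM by -1.11 and LDHA by -0.92, while HK2, the inducible hexokinase, rose by 0.73. In the respiratory chain 11 of 31 fell and 0 rose, with a median of -0.16. In vehicle 15 of the 31 fell and 0 rose, with a median of -0.21. Fatty acid oxidation and lipid storage had 6 of 20 falling and 2 rising. PPARGC1A, a coactivator of mitochondrial genes, went from 8.49, 8.30 and 7.66 to 7.30, 6.43 and 5.49, a change of -1.74 ± 0.21 (limma adjusted p = 5.01e-05). Vehicle arrays went from 7.99, 7.86 and 7.03 to 8.39, 7.26 and 6.93, a change of -0.10 that did not pass, and the difference of -1.64 ± 0.30 did not pass either (limma adjusted p = 0.118). PDK4, a brake on pyruvate oxidation, changed by -2.77 ± 0.52 in CsA cultures, a call lost without the replicate block. Hypoxia targets had 10 of 21 rising and 1 falling, beside 8 rising and 1 falling in vehicle. NDRG1 rose by 1.65 and ANKRD37 by 1.24 with CsA. TXNIP, a glucose-sensing arrestin, had fallen from 12 to 24 h of CsA by 3.15 on the log2 scale and stood at 7.37, 5.42 and 5.55 at 24 h and at 5.01, 4.41 and 5.64 at 48 h. Its further change of -1.09 ± 0.41 (limma adjusted p = 0.0476) was lost under most alternatives, among them without the block, and replicate 3 did not decrease. In vehicle it fell by 3.20 on the log2 scale over the second day.

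Among genes for breaking down or protecting proteins and handling metals, autophagy and lysosome genes had 15 of 32 rising and 1 falling. The shares of all tested genes were 21.3% rising and 20.5% falling. In vehicle 10 of the 32 rose and 2 fell, beside 16.6% and 16% of all tested genes there. WIPI1, an early autophagy factor, went from 8.23, 8.41 and 9.21 to 10.23, 10.93 and 11.58, a rise of 2.29 ± 0.27 (limma adjusted p = 4.36e-05). MAP1LC3B rose by 1.53 and the receptor SQSTM1 by 1.12. Proteasome genes went the other way, with 14 of 26 falling, 1 rising and a median of -0.32 beside -0.42 in vehicle; PSMD1 changed by -0.84. Cytosolic heat shock genes had 2 of 18 rising and 2 falling. Of 23 NRF2 targets, the antioxidant genes, 5 rose and 6 fell, near the shares of all tested genes. Of 12 metallothioneins and zinc carriers 8 fell and 1 rose, with a median of -0.86 beside -0.49 in vehicle, where 8 fell and 2 rose. Of the 12, 0 differed between the arms. MT2A went from 14.28, 14.05 and 15.25 to 13.23, 13.06 and 14.50, a change of -0.93 ± 0.11 (limma adjusted p = 3.7e-05). Replicate 3 lay above the others at both times, so the groups overlap although every pair decreased, and the call was lost without the block. The zinc importer SLC39A14 rose by 1.45.

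Cyclophilins, the binding proteins of CsA, did not move together. Of 16 tested, 4 rose and 3 fell, a share near that of all genes, with a median of 0.05. PPIB, the ER cyclophilin, went from 12.41, 12.06 and 12.03 to 13.37, 13.83 and 13.61, a rise of 1.44 ± 0.27 (limma adjusted p = 0.000915) beside 1.02 in vehicle. PPIA, the cytosolic cyclophilin, went from 14.94, 14.86 and 14.91 to 14.73, 14.60 and 14.79, a change of -0.20 ± 0.07 (limma adjusted p = 0.0476) that was lost without the block and with arrays centred on their median. PPIH, of the spliceosome, changed by -0.80 and PPIL3 by 0.71, and both calls held in every alternative run. Of 12 genes of calcineurin, RCAN and NFAT 2 rose and 0 fell. RCAN1, a calcineurin inhibitor induced by NFAT, went from 6.85, 7.06 and 7.40 to 8.01, 8.51 and 8.10, a rise of 1.10 ± 0.15 (limma adjusted p = 9.83e-05), beside 0.80 in vehicle. The regulatory subunit PPP3R1 changed by 0.79, a call lost without the block.

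Markers used for tubular injury did not share a direction: of 15 tested, 2 rose and 4 fell. These counts are near the shares of all tested genes, of which 21.3% rose and 20.5% fell. HAVCR1, also called KIM-1, went from 11.16, 10.96 and 11.04 to 10.31, 9.20 and 9.61, a change of -1.35 ± 0.14 (2.54-fold lower; limma adjusted p = 2.14e-05). In vehicle it changed by -0.38 ± 0.14 (limma adjusted p = 0.0522), and the difference of -0.96 ± 0.20 did not pass (limma adjusted p = 0.178). LCN2, the iron-carrier binding protein NGAL, went from 2.77, 2.92 and 10.87 to 5.62, 7.92 and 12.72, a change of 3.24 ± 0.63 (limma adjusted p = 0.00126). Replicate 3 was high at both times, so the groups overlap and the call was lost without the block. GDF15, a stress cytokine, went from 10.61, 12.04 and 12.11 to 12.04, 12.88 and 13.51, a change of 1.23 ± 0.25 with the same dependence on the block. CLU, clusterin, changed by 0.23 ± 0.18 (limma adjusted p = 0.332), and 1 of its 3 probe sets had the opposite sign. CD44, a matrix receptor, changed by -1.16, a call lost without the block, while the protease inhibitor TIMP1 changed by -0.75 ± 0.12. Of 8 tested genes of proximal tubule function 0 rose and 2 fell, SLC3A1 and ABCB1; both calls were lost without the block.

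Among 22 collagens and matrix proteins 11 fell and 0 rose, against 20.5% of all tested genes falling. The median was -0.56 beside -0.16 in vehicle, where 3 fell and 2 rose. The difference between the changes passed for 0 of the 22. The largest fall in this list was in THBS1, thrombospondin, which went from 7.25, 6.68 and 8.18 to 5.62, 3.47 and 3.28, a change of -3.24 ± 0.64 (limma adjusted p = 0.00143). COL8A1 went from 11.88, 11.90 and 12.41 to 10.66, 9.59 and 8.52, a change of -2.48 ± 0.41 (limma adjusted p = 0.000389), and COL6A1 and the crosslinking enzyme LOXL2 changed by -0.94 and -0.87. Of 20 TGF-beta family members and targets 5 fell and 1 rose, a share of falls near that of all genes. ID1, a target of BMP signals, went from 10.56, 10.49 and 9.70 to 9.41, 7.55 and 7.79, a change of -2.0 ± 0.31 (limma adjusted p = 0.000265), and LTBP2, a matrix protein of elastic fibres, changed by -2.40 ± 0.35. The list's medians were 0.01, -0.60 and -1.14 in the 3 pairs, so that pair 1 did not share the shift. Of 13 metalloproteinases and inhibitors 7 fell and 1 rose, beside 6 falling and 1 rising in vehicle. MMP1, interstitial collagenase, went from 6.74, 5.48 and 12.79 to 3.95, 2.74 and 10.17 with CsA. Its change of -2.72 ± 0.29 (limma adjusted p = 2.51e-05) was alike in the 3 pairs while replicate 3 stood far above the others, and the call was lost without the block. Of 18 YAP and TEAD targets 5 fell and 0 rose, again a share of falls near that of all genes, and TEAD2 fell by 1.05.

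Junction genes were called at shares near those of all tested genes, of which 21.3% rose and 20.5% fell. Among cadherins and regulators of epithelial state 3 of 12 rose and 3 fell. CDH6, a cadherin of the developing proximal tubule, went from 12.78, 12.45 and 12.79 to 10.83, 9.17 and 10.38, a change of -2.55 ± 0.32 (limma adjusted p = 5.83e-05) beside -1.13 in vehicle. ESRP1, an epithelial splicing factor, went from 6.19, 6.41 and 3.29 to 8.40, 8.49 and 6.97, a change of 2.66 ± 0.33, and CDH1, E-cadherin, from 8.23, 8.16 and 4.11 to 9.17, 9.23 and 5.26, a change of 1.05 ± 0.17. In both replicate 3 was the lowest at either time, and both calls were lost without the block. Of 16 tight junction genes 5 rose and 4 fell: occludin, OCLN, rose by 1.14 ± 0.16, while CLDN2, a cation-pore claudin of the proximal tubule, went from 9.97, 9.27 and 7.35 to 8.33, 6.19 and 3.45, a change of -2.87 ± 0.36 that lost its call without the block.

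Inflammatory genes showed little shared movement except in the interferon list. For comparison, 21.3% of all tested genes rose and 20.5% fell. Chemokines and cytokines had 1 of 14 rising, NF-kappaB feedback genes 0 rising and 2 of 14 falling, and acute phase genes 3 rising and 2 falling of 12. In the type I interferon list 14 of 26 rose and 3 fell, with a median of 0.57 beside 0.12 in vehicle, where 6 rose and 3 fell. The difference between the changes passed for 0 of the 26. The list's CsA medians were 0.12, 0.27 and 0.88 in the 3 pairs, and 11 of its members lost the call when one array was left out. Promoters of a member that rose and of one that fell are shown because both carry letters of the interferon response element.
ISG20, chr15:88638896-88638995, plus strand: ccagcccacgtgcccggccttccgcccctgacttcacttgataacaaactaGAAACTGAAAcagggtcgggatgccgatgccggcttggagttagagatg
OAS3, chr12:112938314-112938473, plus strand: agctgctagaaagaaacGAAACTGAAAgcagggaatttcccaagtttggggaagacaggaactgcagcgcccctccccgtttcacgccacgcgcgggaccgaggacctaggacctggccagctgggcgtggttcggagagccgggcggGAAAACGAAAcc
The letters GAAANNGAAA, on both strands, occurred in 13 of 22 promoters of the list (59.1%). They occurred in 3.07% of all promoters and in 2.29% of promoters of tested genes. ISG20, an antiviral exonuclease, went from 4.39, 4.66 and 4.61 to 6.87, 7.63 and 7.30, a rise of 2.71 ± 0.33 (limma adjusted p = 4.8e-05). OAS3, which makes the activator of RNase L, went from 6.65, 6.56 and 7.77 to 5.44, 5.24 and 5.58, a change of -1.57 ± 0.17 (limma adjusted p = 2.94e-05). IRF1, a transcription factor of interferon and other signals, went from 5.45, 5.50 and 5.98 to 7.62, 8.67 and 10.00, a rise of 3.12 ± 0.37 (limma adjusted p = 4.63e-05). ISG15 (-0.30) and IFIT1 (-0.63), core members of the response, did not pass.

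Beyond these lists, the largest single rise was in LAMP3, a lysosomal membrane protein. It lay near background at 24 h with 2.36, 2.34 and 2.34 and reached 6.24, 7.76 and 8.13 at 48 h, a rise of 5.03 ± 0.52 (limma adjusted p = 2.13e-05). Vehicle arrays reached 3.00, 6.25 and 4.91, a rise of 2.39 ± 0.52, and the difference of 2.63 ± 0.74 did not pass (limma adjusted p = 0.248). SNORC, a membrane proteoglycan, rose by 4.55, BEX5 and BEX2, small adaptor proteins, by 3.70 and 3.63, ITPKA, an inositol phosphate kinase, by 3.55 and DNAJC12, a cochaperone, by 3.48. SCG5, a secretory granule chaperone, changed by 3.47 ± 0.94, a call lost without CsA replicate 2 of 48 h and without the block. The largest fall was in LRRN4, a leucine-rich repeat protein, which went from 9.21, 8.29 and 10.47 to 6.88, 5.30 and 3.61, a change of -4.06 ± 0.70 (limma adjusted p = 0.000531). TM4SF1, a tetraspanin-like surface protein, changed by -3.74, BRI3BP by -3.46, SLN, sarcolipin, by -3.37, BRINP1 by -3.20 and RIBC2 by -3.08. For each of these rises and falls except SCG5 the 24 h and 48 h arrays did not overlap.

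The test of whether CsA and vehicle cultures changed differently passed for 5 genes, and none of them belonged to the gene lists used here. IL20RB, a receptor chain for cytokines of the IL-20 family, stood at 3.46, 3.82 and 3.45 at 24 h of CsA and at 6.62, 7.23 and 7.02 at 48 h, a rise of 3.38 ± 0.15. In vehicle it went from 3.46, 3.46 and 3.48 to 5.02, 4.90 and 5.43, a rise of 1.65 ± 0.15, and the changes differed by 1.73 ± 0.21 (limma adjusted p = 0.00859). Its 24 h levels in both arms lay near background, so the sizes of both rises may be understated. A1BG, a plasma glycoprotein, went from 5.87, 5.76 and 5.72 to 6.91, 7.26 and 6.73 with CsA and stayed between 5.85 and 5.94 on the 6 vehicle arrays, a difference of 1.21 ± 0.15 (limma adjusted p = 0.0086). ALG14, a subunit of the enzyme that adds the second sugar to the N-glycan precursor, went from 7.83, 7.47 and 7.32 to 8.48, 8.90 and 8.21 with CsA, and from 8.30, 8.26 and 7.83 to 7.89, 7.69 and 7.41 with vehicle. It thus rose in one arm and fell in the other, a difference of 1.46 ± 0.20 (limma adjusted p = 0.0187). NETO1, an auxiliary subunit of glutamate receptors, went from 6.15, 6.31 and 6.94 to 4.07, 3.59 and 4.36 with CsA and from 5.65, 6.24 and 6.94 to 5.19, 5.60 and 5.79 with vehicle, a difference of -1.72 ± 0.26 (limma adjusted p = 0.0352). EML2-AS1, an antisense RNA, moved from 2.81 to 2.83 at 24 h to 4.16, 3.84 and 4.03 at 48 h of CsA, levels close to background, a difference of 1.16 ± 0.12 (limma adjusted p = 0.00238). FBXO16, an F-box protein, came next with 1.52 ± 0.24 and did not pass (limma adjusted p = 0.0588).

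**Figure D4:**
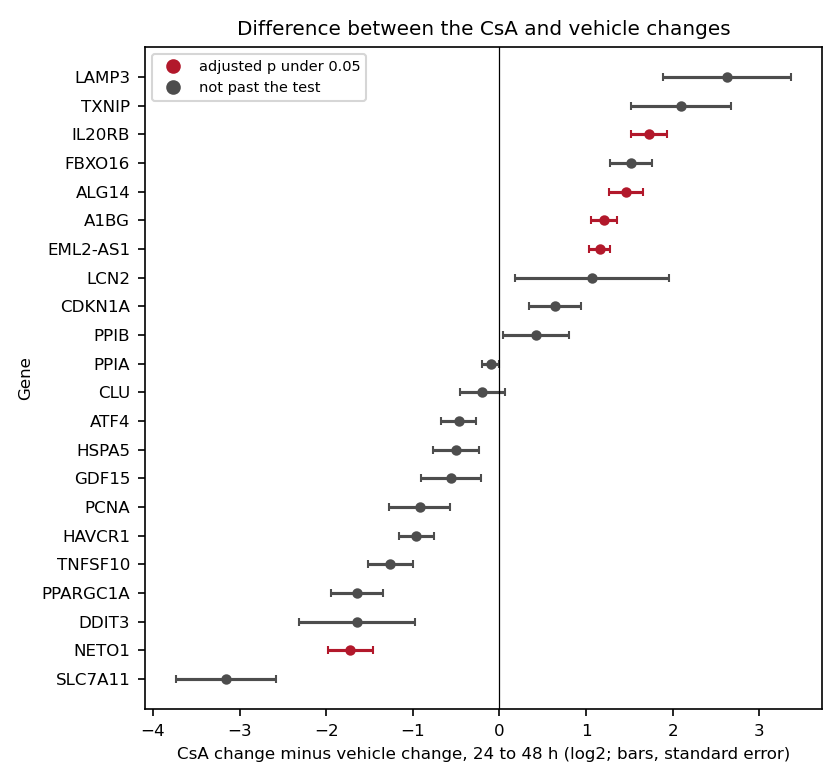
The CsA change minus the vehicle change from 24 to 48 h (log2, x axis; points are limma estimates and bars their standard errors) for 22 genes named in the text. The 5 red points passed the test; SLC7A11 at -3.16, LAMP3 at 2.63 and TXNIP at 2.10 are farther from 0 but have wider bars and did not pass.

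The count of such genes depended on CsA replicate 1 of 48 h, from the pair that had moved least of the 3 CsA pairs. Without it 253 genes passed, 64 with a positive and 189 with a negative difference, and the 5 genes were among them. Without the arrays of any one replicate number altogether, 0 passed. In the fit without that array 1.76% of all tested genes had a negative and 0.597% a positive call. The negative calls included 12 of 41 DNA replication genes, 4 of 12 of S-phase chromatin, 3 of 22 of collagens and matrix proteins, 3 of 20 of the TGF-beta list and 1 of 46 of mitosis, the last near the share of all genes. The positive calls included 3 of 17 p53 targets. TNFSF10 differed by -1.58 ± 0.15 there (limma adjusted p = 0.000583), COL4A1, a basement membrane collagen, by -1.82 ± 0.13 (limma adjusted p = 7.59e-05), PPARGC1A by -1.85, HAVCR1 by -1.13, UHRF1 by -2.48, MCM2, a helicase subunit, by -1.57 and SLC7A11 by -3.28. These genes were picked after their values were seen, and none of them differed in the main fit. The fit without this array was singled out for giving the highest count, so its calls are no separate support. In the main fit the difference passed for 0 of the 41 DNA replication genes. What set replicate 1 of 48 h apart was not tested.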

How the data were processed

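RNA of HK-2 cells was measured on 18 Affymetrix arrays in 6 groups of 3 biological replicates. The authors' deposited values were made with GCRMA (per the submitters' processing notes, no version) and were read as log2 because they run from 0.845 to 15.98; no label states the base. GCRMA holds low probe sets near a common value, which compresses differences there. Names came from the array's platform annotation: of 54675 probe sets, 41091 had 1 symbol, 1801 several and 11721 none, and 62 were controls. Among probe sets with 1 symbol and a highest group mean of at least 4, the brightest per gene was kept, leaving 10717 genes. The number of arrays limits the precision.

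Differences were fitted with limma 3.58.1 in R 4.3.3 on all 18 arrays, with a term per group and the replicate number as a block, Benjamini-Hochberg adjustment over all genes and a threshold of 0.05; the procedure was tested on simulated data. Arrays were paired by their biological replicate number, although the labels do not say that equal numbers mark a shared culture or day. Deviations of CsA arrays of 24 and 48 h from their group means correlated at 0.503, 0.413 and 0.574 for equal replicate numbers. For unequal numbers the correlation was no more than 0.265. Deviations cancel within each group, so these correlations depend on each other and are no separate test of the pairing. Of 51 gene lists, members reaching the filter were counted without a set test. The text names the 12 largest rises and falls with 3 pairs moving alike, up to 4 genes per list and direction by smallest p, genes whose changes differed, and 13 preset genes; MCM2, MCM6, POLA1, ASNS, CRELD2, CALR, PRIM1, ERO1A, ISG15, IFIT1 and the other genes with an ER stress element were named after their values were seen. Members, lists and rules were chosen with earlier results of these data known. Alternatives covered the block, arrays, filter, floor, normalization, probe sets and each array left out. Tables and figures used Python 3.11.15, pandas 2.3.3 and matplotlib 3.10.9.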

Additional observations from a re-analysis of the deposited data

Results flagged for a closer look

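For 5 genes the change from 24 to 48 h differed between CsA and vehicle cultures by the test of that difference. The CsA change exceeded the vehicle change by 1.73 for IL20RB, 1.46 for ALG14, 1.21 for A1BG and 1.16 for EML2-AS1, and it was more negative for NETO1, by -1.72 on the log2 scale. In all 3 replicate pairs each of the 5 moved one way with CsA. EML2-AS1 was measured near background, and its change with CsA no longer passed with values below 4 raised to 4. Without the replicate block ALG14 and NETO1 no longer differed, and on the 12 arrays of 24 and 48 h alone none of the 5 did. EML2-AS1 is antisense to another gene, and the sources used here do not say whether the array's probes resolve the strand.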

How the results depend on the processing

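The replicate block decided part of the counts: without it 2702 genes passed in CsA and 1552 in vehicle. On the 6 arrays of one arm alone, 2235 and 613 passed, with fewer arrays to estimate the spread. The test of the difference called 0 genes on the 12 arrays of 24 and 48 h and 3 with no filter on low values. With one array or one replicate number left out, between 2950 and 4375 genes passed in CsA, between 2054 and 3290 in vehicle and between 0 and 253 for the difference; the highest count came without CsA replicate 1 at 48 h. Next were 15 without vehicle replicate 2 and 12 without CsA replicate 3, both at 48 h. Without CsA replicates 1, 2 and 3 at 24 h the counts were 4, 5 and 6. Without vehicle replicates 1 and 3 at 48 h they were 4 and 6. The count was 3 without CsA replicate 2 at 48 h, and 1, 3 and 2 without vehicle replicates 1, 2 and 3 at 24 h. It was 0 without replicate 1, 2 or 3 throughout. The lowest CsA count came without replicate 2, and vehicle had 2054 without replicate 1 and 2228 without replicate 2. The cause was not tested. Over all alternatives, 4155 results of the 247 named genes kept their call and direction, 525 lost the call, 3 gained one and 0 reversed. Of the 29 lists with a median change of at least 0.3 in size, 0 changed sign. Limits are the 3 pairs, the unequal movement of the pairs, the unstated dose and hybridisation order, and levels near background, where a change has no firm size.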

Other observations

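Genes of the circadian clock, which the report did not describe, were called in CsA cultures at about the shares of all tested genes (21.3% rose and 20.5% fell): of 15 tested, 3 rose and 3 fell. BMAL1, the activator of the clock, went from 7.49, 7.32 and 6.84 at 24 h to 8.16, 8.50 and 8.61 at 48 h, a rise of 1.21 ± 0.18 (limma adjusted p = 0.000221) beside 0.88 in vehicle. BHLHE40, a repressor of the clock, went from 9.42, 9.64 and 9.67 to 8.70, 8.28 and 8.55, a change of -1.07 ± 0.16 (limma adjusted p = 0.000189). In vehicle it changed by -0.36 and did not pass, and neither did the difference between the changes. PER2 changed by 1.94 ± 0.40, a call lost on the 6 arrays alone, and PER3 by -1.01 ± 0.32, a call lost, among other settings, without CsA replicate 2 at either time. The list's medians were 0.02, -0.45 and 0.21 in the 3 pairs.

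Of 16 genes of the EGF receptor family and its ligands, 3 rose and 4 fell, also near the shares of all genes. BTC, the ligand betacellulin, went from 4.12, 4.39 and 4.19 to 6.07, 7.55 and 7.39, a rise of 2.77 ± 0.31 (limma adjusted p = 3.14e-05) beside 1.97 in vehicle. TGFA, another ligand, changed by -0.62 ± 0.13, a call lost when its probe sets were averaged. Of 5 keratins 3 rose, beside 21.3% of all genes rising. KRT18 went from 12.56, 12.58 and 11.89 to 13.01, 13.46 and 12.93, a rise of 0.79 ± 0.19 (limma adjusted p = 0.0048). With vehicle it changed by 0.25 and did not pass, and neither did the difference between the changes. Of 10 integrins 3 fell and 0 rose, beside 20.5% of all genes falling; ITGB5 changed by -1.06 ± 0.16.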
